A study of Bos taurus with 4 samples.

Results

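The bovine casein genes are the 4 rows CSN1S1 (ENSBTAG00000007695), CSN2 (ENSBTAG00000002632), CSN1S2 (ENSBTAG00000005005) and CSN3 (ENSBTAG00000039787) of the 24616 gene rows measured. They were taken by Ensembl identifier as the casein genes, with earlier results of these data known. The pairing of identifier and symbol came with that choice, because the measurements themselves carry identifiers only. Gene expression was measured by RNA sequencing of read pairs of 150 bases in Holstein cattle (the breed is spelled "Hostein" in the labels). There were 2 mammary libraries from females and 2 lymphocyte libraries from males, so a difference of tissue is also one of sex and these cannot be told apart. The labels name no treatment, genotype, age or stage of lactation, and both mammary titles carry the unexplained mark "dup". Whether the replicates are different animals is also left unsaid, so the p-values refer to libraries, and part of the spread between libraries may be technical.

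Caseins are the main proteins of cow's milk and are made by the secretory epithelial cells of the mammary gland. CSN1S1, CSN2 and CSN1S2 encode alpha-s1-, beta- and alpha-s2-casein, the calcium-sensitive caseins, whose phosphorylated serines bind calcium phosphate. CSN3 encodes kappa-casein, which sits at the surface of the casein micelle, keeps it in suspension and is the protein cut by chymosin when milk is curdled. Transcription of casein genes in the gland is driven by prolactin through the transcription factor STAT5, together with glucocorticoids, and rises steeply with lactation. In the RefSeq table of assembly ARS-UCD2.0, which is not the build named for these data, the 4 genes lie on 1 chromosome in the order CSN1S1, CSN2, CSN1S2, CSN3. No other entry of that table starts between CSN1S1 and CSN2, 2 start between CSN2 and CSN1S2, and 4 start between CSN1S2 and CSN3.

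Values are FPKM, a fragment count corrected for transcript length and for sequencing depth, which allows levels to be compared between genes. Summed FPKM ranged from 828745 to 1536182 over the 4 libraries. The number of fragments behind them is not known. The mammary libraries stood apart from each other over the tested rows as a whole. FPKM is taken relative to the whole library, caseins included, so the medians that follow are not independent of the caseins. Among tested rows above 0 in both, the median row of mammary replicate 2 was at 0.368 times its level in replicate 1, and the median row of lymphocyte replicate 2 was at 1.41 times its level in replicate 1. No 2 libraries were copies of each other: the lymphocyte replicates, the most alike, had values within 0.01 FPKM in 346 of the 12311 tested rows. Marker genes of epithelium, fat, vessels and blood cells could not be matched to identifiers, so the tissue labels were not checked beyond the caseins.

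All 4 caseins were far higher in mammary tissue than in lymphocytes, and far higher in mammary replicate 2 than in replicate 1. CSN1S1 had 1481 FPKM in mammary replicate 1 and 148249 FPKM in mammary replicate 2, and 5.22 and 6.49 FPKM in lymphocyte replicates 1 and 2. It was the highest casein in every library. CSN2 was at 713 and 87373 FPKM in the mammary libraries and at 2.70 and 3.62 FPKM in the lymphocyte libraries, in the same order. CSN1S2, the gene of the least abundant calcium-sensitive casein here, was at 427 and 45145 FPKM and at 1.39 and 1.68 FPKM. CSN3 was at 1183 and 48464 FPKM and at 1.27 and 1.84 FPKM. For each of the 4, the lower mammary library lay well above the higher lymphocyte library, so the groups did not overlap. Over the 12311 tested rows, 13.7% had both mammary libraries above both lymphocyte libraries.

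**Figure D1:**
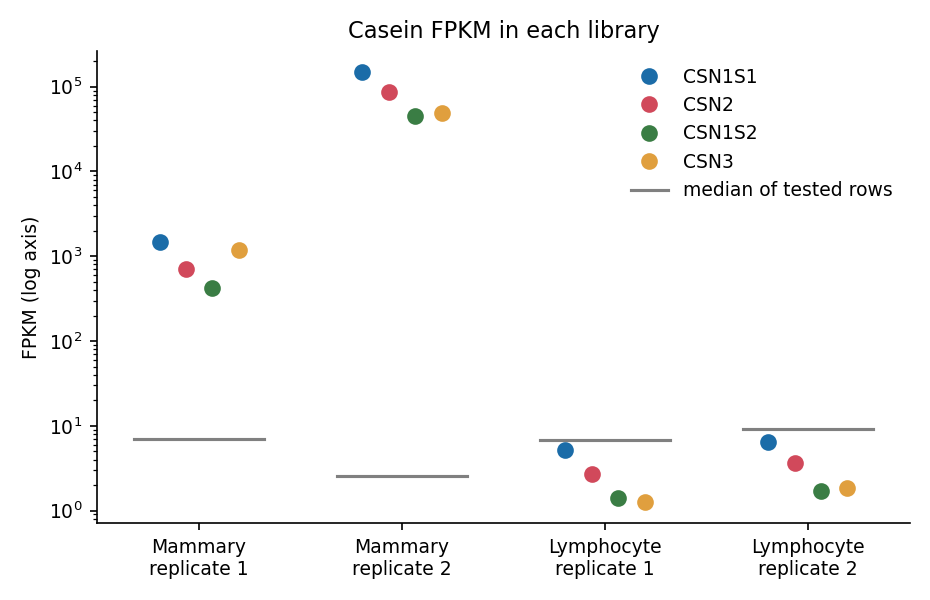
FPKM of each casein (points, log axis) in the 4 libraries, with the median of the tested rows of each library as a grey line. The caseins sit between 427 and 148249 FPKM in the mammary libraries and between 1.27 and 6.49 FPKM in the lymphocyte libraries, where all 4 are below that library's median tested row.

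The caseins ranked near the middle of the expressed genes or below it in lymphocytes and near the top in mammary tissue. In mammary replicate 2, CSN1S1 was the row with rank 3 by FPKM, CSN2 rank 7, CSN3 rank 8 and CSN1S2 rank 10 of all rows. In mammary replicate 1 the ranks were 46 for CSN1S1, 56 for CSN3, 98 for CSN2 and 150 for CSN1S2. In lymphocyte replicate 1, CSN1S1 was higher than 54.8% of the rows above 0 and CSN3 higher than 33.1%. All 4 caseins reached 1 FPKM in every library, as did 67.5% of the tested rows, so none passed the filter on low values through the mammary libraries alone.

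The share of a library's summed FPKM taken by the 4 caseins spanned more than 4 orders of magnitude. It was 23.8% in mammary replicate 2 and 0.248% in mammary replicate 1. In lymphocyte replicates 1 and 2 it was 0.00128% and 0.00141%. The mean mammary share exceeded the mean lymphocyte share by 12.0 percentage points, with an SD of 16.6 between the mammary libraries (n = 2). An exact two-sided permutation test over the libraries gave p = 0.33, the smallest p that 2 libraries against 2 can give. The difference rested on 1 library: it was 0.246 percentage points without mammary replicate 2 and 23.8 without mammary replicate 1. A set of 11 rows other than caseins was among the 20 highest of every library and held 56.6% of the summed FPKM of mammary replicate 2 and 74.0% of that of replicate 1. With those rows left out of the total, the casein share was 54.7% in mammary replicate 2, 0.952% in mammary replicate 1, and 0.00316% and 0.00300% in lymphocyte replicates 1 and 2.

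In the test over all rows, all 4 caseins were called higher in mammary tissue, against 8.54% of the 12311 rows tested. The test was limma's moderated test on log2(FPKM + 1), with p-values adjusted over all tested rows by the Benjamini-Hochberg method and a threshold of 0.05. CSN3 had the largest log2 difference of all tested rows, 11.54 (SE 0.89, limma adjusted p = 5.2e-34). CSN1S1 followed with 11.08 (SE 0.91, limma adjusted p = 1.1e-30) and CSN2 with 10.90 (SE 0.90, limma adjusted p = 2.2e-30). CSN1S2 ranked 6 by this difference, at 10.76 (SE 0.89, limma adjusted p = 2.7e-30). The order of the 4 caseins depended on the added value. With 0.1 added in place of 1 it was CSN3 (12.18), CSN1S2 (11.40), CSN1S1 (11.29) and CSN2 (11.26). With 5 added it was CSN1S1 (10.42), CSN3 (10.18), CSN2 (9.93) and CSN1S2 (9.40). The median log2 difference of all tested rows was -0.81, which is toward lymphocytes.

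These very small p-values depended on a spread pooled over rows. For the median row that spread was an SD of 0.84 in log2 units, whereas the caseins' own residual SD was 3.32 for CSN1S1, 3.47 for CSN2, 3.36 for CSN1S2 and 2.68 for CSN3. With each library divided by its median-of-ratios factor, a row's own spread enters the limma test. There all 4 kept their direction but only CSN3 passed (log2 difference 12.34, SE 2.32, limma adjusted p = 0.033), where 12.1% of all rows were called higher in mammary tissue. CSN1S1 (12.00, limma adjusted p = 0.051), CSN1S2 (11.55, limma adjusted p = 0.056) and CSN2 (11.77, limma adjusted p = 0.057) then missed the threshold. A row's own spread also entered after quantile normalization, which gives all libraries the same distribution of values. There all 4 passed, with limma adjusted p-values of 0.032 for CSN1S1, 0.033 for CSN2, 0.034 for CSN1S2 and 0.019 for CSN3. In that fit 11.2% of all rows were called higher in mammary tissue. When every row above 0 in any library was fitted, 0 of the 4 passed, with limma adjusted p-values of 0.089 for CSN3 and 0.10 for each of the others, where 0.0207% of all rows were called higher in mammary tissue. The unadjusted p in that fit was 0.00021 for CSN3 and 0.00085, 0.0011 and 0.00099 for CSN1S1, CSN2 and CSN1S2.

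**Figure D2:**
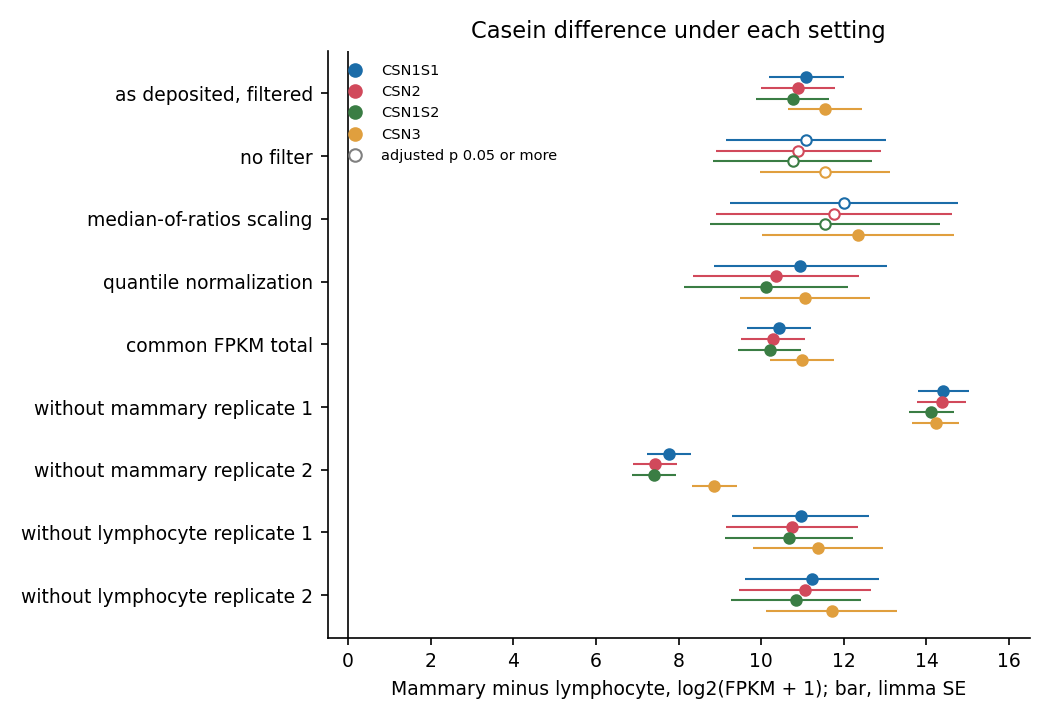
Log2 difference of each casein, mammary minus lymphocyte (points; bars, limma standard error; filled where the adjusted p is below 0.05), under 9 ways of scaling, filtering or leaving out a library. Every point lies to the right of 0, between 7.40 and 14.41, and the points without mammary replicate 2 are the lowest.

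The size of the tissue difference was set by which mammary library was used. Without mammary replicate 1 the log2 differences were 14.41 for CSN1S1, 14.37 for CSN2, 14.22 for CSN3 and 14.12 for CSN1S2. Without mammary replicate 2 they were 8.86 for CSN3, 7.76 for CSN1S1, 7.43 for CSN2 and 7.40 for CSN1S2. As plain ratios of FPKM, CSN1S1 in mammary replicate 1 was 284-fold and 228-fold above lymphocyte replicates 1 and 2, and in mammary replicate 2 it was 28414-fold and 22839-fold above them. CSN3 in mammary replicate 1 was 929-fold and 643-fold above lymphocyte replicates 1 and 2, and in mammary replicate 2 it was 38059-fold and 26340-fold above them. For mammary replicate 2 these plain ratios were 32368-fold and 24157-fold for CSN2 and 32471-fold and 26802-fold for CSN1S2. CSN1S1 thus had the smallest plain ratio there, so the order of the log2 differences without mammary replicate 1 depended on the added 1. The lymphocyte libraries had little weight in the size: leaving out either one gave differences from 10.68 to 11.70.

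The caseins were higher in mammary replicate 2 than in replicate 1 by a larger ratio than nearly every other tested row. CSN2 was 122.6-fold higher in replicate 2, CSN1S2 105.6-fold, CSN1S1 100.1-fold and CSN3 41.0-fold. All 4 exceeded 32-fold, as did 0.189% of the 12144 tested rows above 0 in both mammary libraries (23 rows). Most rows ran the opposite way, and only 6.67% of tested rows were higher in mammary replicate 2. Because FPKM is relative to the whole library, that direction is not independent of the casein level. After median-of-ratios scaling, which brings the median row of the libraries together, the same ratios were 319-fold for CSN2, 275-fold for CSN1S2, 260-fold for CSN1S1 and 107-fold for CSN3. With 1 library on each side, this difference was not tested. The labels give nothing that separates the 2 mammary libraries. In bulk samples, fewer secretory cells and less casein RNA per cell cannot be told apart.

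**Figure D3:**
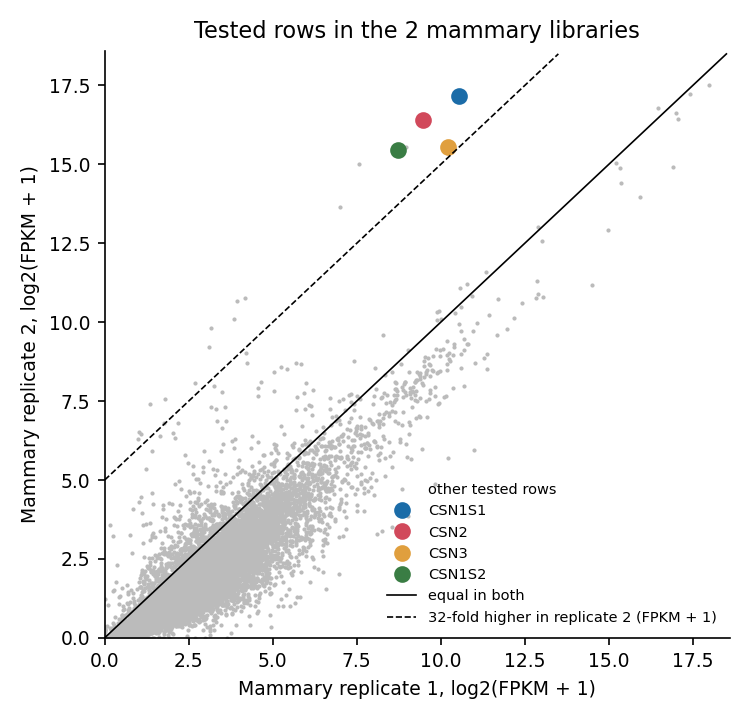
Each tested row as a grey point by its log2(FPKM + 1) in mammary replicate 1 (horizontal) and mammary replicate 2 (vertical), with the caseins in colour. Most rows lie below the solid line of equal values, and the 4 caseins lie above the dashed 32-fold line at the top.

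CSN3 differed less between the mammary libraries than the calcium-sensitive caseins did. In mammary replicate 1, CSN3 made up 31.1% of the casein FPKM and was second to CSN1S1, at 38.9%, with CSN2 at 18.7% and CSN1S2 at 11.2%. In mammary replicate 2, CSN3 made up 14.7%, with CSN1S1 at 45.0%, CSN2 at 26.5% and CSN1S2 at 13.7%. The ratio of CSN3 to the summed calcium-sensitive caseins was thus 0.451 in mammary replicate 1 and 0.173 in replicate 2. In lymphocyte replicates 1 and 2 it was 0.137 and 0.156. These ratios are taken within a library, so scaling of a whole library does not change them.

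The calcium-sensitive caseins kept nearly the same proportions to one another in all 4 libraries, across more than 4 orders of magnitude of level. The low end of that range is the lymphocyte values of 1.39 to 6.49 FPKM. Their depth is not known, and whether they come from the lymphocytes' own RNA was not tested. Of their summed FPKM, CSN1S1 made up between 52.8% and 56.5%, CSN2 between 27.2% and 31.1%, and CSN1S2 between 14.3% and 16.3%. Their order was CSN1S1, CSN2, CSN1S2 in every library. The place of CSN3 in the order changed. It was second in mammary replicate 1, the third in mammary replicate 2 and lymphocyte replicate 2, and the lowest in lymphocyte replicate 1. CSN3 and CSN1S2 were close in lymphocytes, at 1.56 ± 0.40 and 1.54 ± 0.21 FPKM (SD, n = 2), a difference smaller than the spread between replicates.

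**Figure D4:**
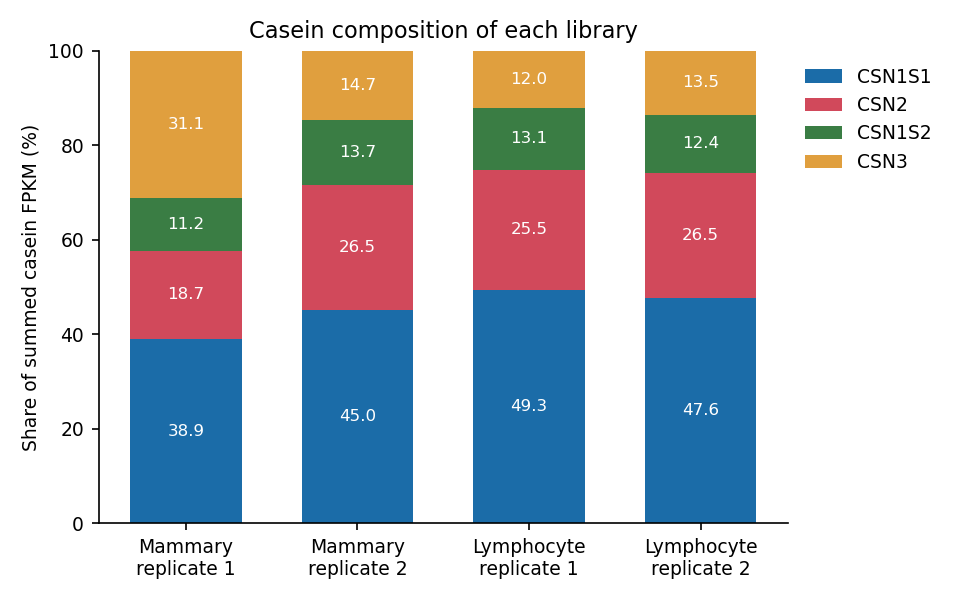
Share of each casein in the summed casein FPKM (percent, stacked bars to 100) in each library. CSN3 takes 31.1% in mammary replicate 1 and between 12.0% and 14.7% in the other 3 libraries.

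With 2 libraries a group, the exact permutation test used for casein composition cannot go below a p of 0.33. The CSN3 share averaged 22.9% ± 11.6 in mammary tissue and 12.8% ± 1.03 in lymphocytes (SD, n = 2), and the exact two-sided permutation p was 0.33, the smallest possible (0.56 after Benjamini-Hochberg adjustment over 5 shares). The CSN1S1 share averaged 42.0% ± 4.31 and 48.5% ± 1.20 (SD, n = 2), with the same exact p of 0.33. The CSN2 and CSN1S2 shares overlapped between the tissues, each with an exact permutation p of 1.

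The casein composition of the lymphocyte libraries was close to that of mammary replicate 2 and unlike that of mammary replicate 1. The summed absolute differences between the 4 shares, multiplied by 0.5, came to 4.28 and 2.59 percentage points between mammary replicate 2 and lymphocyte replicates 1 and 2. This was near the 2.48 points between the lymphocyte replicates themselves. From mammary replicate 1, the same measure was 19.1 and 17.6 points to lymphocyte replicates 1 and 2 and 16.4 points to mammary replicate 2. Among the calcium-sensitive caseins alone all 6 distances lay between 1.67 and 3.93 points, so the larger distances appeared with CSN3 included.

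Relative to mammary replicate 2, each lymphocyte library held all 4 caseins at nearly 1 ratio. In lymphocyte replicate 1 the ratio ran from 2.63e-05 for CSN3 to 3.52e-05 for CSN1S1, a spread of 1.34-fold. In lymphocyte replicate 2 it ran from 3.73e-05 for CSN1S2 to 4.38e-05 for CSN1S1, a spread of 1.17-fold. Relative to mammary replicate 1 the same ratios spread 3.52-fold and 3.26-fold, with CSN3 the lowest in both. Of the 43 rows at 1000 FPKM or more in mammary replicate 2, 9 were below 1e-04 of that level in both lymphocyte libraries, and all 4 caseins were among these. Of those 9 rows, 6 were above 0 in both lymphocyte libraries, and the 2 that are not caseins had ratios between 3.39e-05 and 4.90e-05. Among the rest of the 43 rows the lowest single ratio was 0.0035, and the larger of a row's 2 ratios was never below 0.0050. In mammary replicate 1, 67 rows reached 1000 FPKM, and only 2 of the caseins, CSN1S1 and CSN3, were among them. Set against that library in the same way, 3 of the 67 rows were below 1e-04 in both lymphocyte libraries. None of those 3 was a casein or was above 0 in both lymphocyte libraries. Among the rest of the 67 rows the larger of a row's 2 ratios was as low as 1.3e-04, so there was no such gap. The limits of 1000 FPKM and 1e-04 were chosen after the values were seen. Per the labels, individually tagged libraries were pooled for sequencing. Whether the lymphocyte casein values come from the lymphocytes' own RNA or from RNA or reads of another library was not tested.

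**Figure D5:**
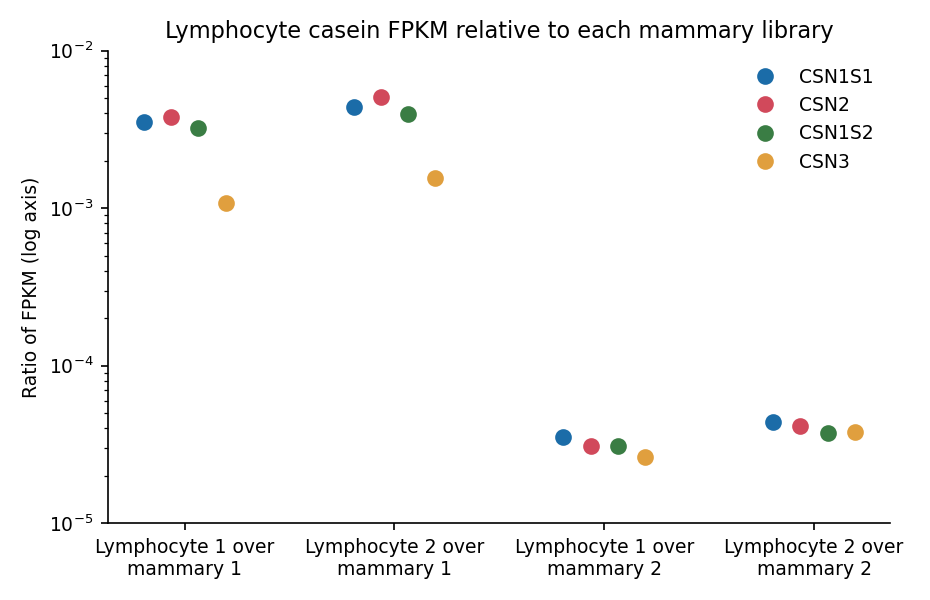
FPKM of each casein in a lymphocyte library divided by its FPKM in a mammary library (log axis), for the 4 pairs of libraries. Over mammary replicate 2 the 4 caseins lie between 2.63e-05 and 4.38e-05, and over mammary replicate 1 between 0.00108 and 0.00508 with CSN3 the lowest.

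In lymphocytes all 4 caseins were slightly higher in replicate 2, which was the direction of 82.0% of the tested rows. The ratio of replicate 2 over replicate 1 was 1.24 for CSN1S1, 1.34 for CSN2, 1.21 for CSN1S2 and 1.44 for CSN3. After median-of-ratios scaling these ratios were 0.916, 0.987, 0.892 and 1.06, so the caseins did not share a direction there.

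Very few other rows had the pattern of the caseins over the 4 libraries. Likeness was the Euclidean distance in log2(FPKM + 1), after each row was centred on its own mean, to the mean pattern of the 4 caseins. The caseins themselves lay at distances of 0.16 (CSN1S1), 0.39 (CSN1S2), 0.41 (CSN2) and 0.88 (CSN3), and the median of the 12311 rows was 12.98. The nearest other row was ENSBTAG00000014678, at a distance of 0.46, with 499.6 and 47584 FPKM in mammary replicates 1 and 2 and 1.99 and 1.61 FPKM in lymphocyte replicates 1 and 2. The next was ENSBTAG00000013417, at 1.12, with 128.1 and 12789 FPKM in the mammary libraries and 0 and 0.581 FPKM in the lymphocyte libraries. The following rows lay at 1.29 and 4.11. Gene names were not matched to these rows, so the other milk protein and prolactin pathway genes listed for comparison were not tested.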

How the data were processed

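Messenger RNA of 2 mammary and 2 lymphocyte libraries was sequenced, per the labels, from total RNA with a TruSeq kit. The authors deposited 1 FPKM value per Ensembl gene and library. The submitters' processing notes name Trimmomatic 0.39, STAR, Cufflinks and the build UMD3.1, without roles or order. Not given in the sources used here were the annotation release, strand use and how duplicate or multi-mapping reads were treated. Each of the 4 value columns matched 1 sample title. Replicate numbers follow accession order and pair nothing.

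FPKM keeps no counts. Ratios of values below 0.08 FPKM fell on whole-fragment steps (tolerance 0.015 on the log2 scale) in at most 22.6% of rows for the mammary pair. For the lymphocyte pair this was 20.8%. Averaged over all depth offsets tried between the libraries of a pair, the shares were 5.94% and 6.42%. Most rows lay off the steps tried, so no reads were recovered and no count test was run. The 12311 rows that reached 1 FPKM in 2 or more libraries were tested two-sided with limma 3.58.1 in R 4.3.3 on log2(FPKM + 1). The model held tissue alone and a mean-variance trend, and the added 1 makes the differences of low rows too small. The step was tested on simulated data with normal noise at the fit's own pooled spread, so that run cannot check the spread itself. Shares were compared by exact permutation over libraries (scipy 1.17.1). Named rows are the 4 caseins and the 2 rows nearest to their pattern. None of the identifiers was found in the RefSeq table (37063 genes, which lists no Ensembl identifiers), so the lists of other milk, lactation and cell type genes were not used. The members and lists were chosen with earlier results of these data known. Alternatives covered the pseudocount, filter, scaling, trend and each library left out.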

Additional observations from a re-analysis of the deposited data

How the results depend on the processing

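All 4 log2 differences stayed positive under the 17 alternatives run, 5 of them chosen after seeing the data. With all 4 libraries kept, all 4 caseins passed limma's threshold under either other pseudocount, the filter at 5 FPKM, a common FPKM total, quantile normalization and no trend. In those fits between 4.78% and 11.2% of all tested rows were called higher in mammary tissue. Without the filter on low values 0 of 4 passed (CSN1S1 11.08, CSN2 10.90, CSN1S2 10.76, CSN3 11.54), against 0.0207% of all rows. There limma's prior fell from an infinite number of degrees of freedom to 4.67. After median-of-ratios scaling 1 of 4 passed, against 12.1% of all rows, with CSN1S1 at 12.00, CSN2 at 11.77 and CSN1S2 at 11.55 missing the threshold. The same scaling with factors from the tested rows only (added) also left 1 of 4, against 12.8% of all rows. There CSN1S1 at 12.07 (limma adjusted p = 0.050), CSN2 at 11.83 and CSN1S2 at 11.61 missed the threshold. Leaving out a library without scaling gave log2 differences from 7.76 to 14.41 for CSN1S1, 7.43 to 14.37 for CSN2, 7.40 to 14.12 for CSN1S2 and 8.86 to 14.22 for CSN3. Median-of-ratios scaling together with leaving out a library (added) gave 8.09 to 15.99 for CSN1S1, 7.75 to 15.89 for CSN2, 7.70 to 15.55 for CSN1S2 and 9.17 to 15.65 for CSN3. In those fits the log2 differences of CSN1S1, CSN2, CSN1S2 and CSN3 were 11.99, 11.70, 11.51 and 12.23 without lymphocyte replicate 1. Without lymphocyte replicate 2 they were 11.89, 11.67, 11.38 and 12.22. A tissue left with 1 library was given the spread of the other tissue's replicates. Over all alternatives the limma adjusted p ranged from 3.5e-46 to 0.17 for CSN1S1, 9.0e-45 to 0.18 for CSN2, 6.6e-44 to 0.18 for CSN1S2 and 6.4e-50 to 0.13 for CSN3. The mammary minus lymphocyte difference in casein share ranged from 0.246 to 23.8 percentage points with a library left out and was 27.8 without the 11 rows high in every library. Adding 1 to every FPKM moved the mean lymphocyte shares to 42.6% for CSN1S1, 15.8% for CSN1S2 and 15.8% for CSN3, since it pulls low values toward equal shares. No paired analysis was possible because the libraries share no number in the labels. Depth is not known, so how counting error limits the low lymphocyte values cannot be said.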
